A study of Mus musculus with 5 samples.

Results

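Among the mouse genes other than Ubd whose array signal separated wild-type from ECAT11 EGFP/EGFP embryonic stem cells (ESCs), 8 are described here probe by probe and line by line. They are Nf2, Gm288 (Ccnb1ip1 in RefSeq), Lrrc15, Mrgpra1, Olfr460, 5730437C12Rik, 6230424C14Rik and 4930447K03Rik. The members, 8 of the 27962 gene names in the files, are measured by 11 of the 41174 probes, and every probe that carries a member's name is included. They were chosen from the difference between the genotypes in these same arrays, so that difference is described below without a test. Tests are given only for other genes.

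Total RNA of 5 ESC lines, 1 one-colour array per line, was labelled with Cy3. The wild-type group held RF8, labelled male and of 129sv origin, and #620-2, labelled female and of mixed C57BL6 and 129sv background. The ECAT11 EGFP/EGFP group held #620-6, labelled female, and #757-1 and #757-2, labelled male, all of the same mixed background. In these lines an EGFP-IRES-Puro cassette stands in place of the ECAT11 coding region on both alleles, from a single targeted clone of RF8 that was passed through mice, and the lines were made from blastocysts of heterozygous parents. All lines were grown with LIF and serum on gelatin. ECAT11 itself is not analysed here. The lines are the replicates, so a difference between genotypes cannot be told apart from one between the lines' strain segments. RF8 is the only line labelled as 129sv alone.

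Merlin, the product of Nf2, is a tumour suppressor of the ezrin, radixin and moesin family that links membrane proteins to the actin cytoskeleton and acts upstream of the Hippo kinases Lats1 and Lats2, which restrain the coactivator Yap1. Ccnb1ip1 encodes a RING-finger protein also called HEI10, which is needed for crossovers in meiosis and is best known from germ cells. Lrrc15 encodes a membrane protein with leucine-rich repeats, known from mesenchymal cells and activated fibroblasts. Mrgpra1 belongs to a family of G protein-coupled receptors of sensory neurons, and Olfr460 to the odorant receptors of the olfactory epithelium. The last 3 names are RIKEN cDNA clones.

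Each probe is a 60-base oligonucleotide, and its sequence fixes what was measured. That of Lrrc15 probe 2 is shown because the comparison between probes of a gene turns on it, and those of the receptors and of 5730437C12Rik because each of these rests on a single probe. The sequences are from the deposited files, 5′ to 3′ on the strand of the transcript.
Lrrc15 probe 2: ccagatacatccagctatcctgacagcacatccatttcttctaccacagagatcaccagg
Olfr460: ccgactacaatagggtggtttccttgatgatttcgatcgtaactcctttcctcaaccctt
Mrgpra1: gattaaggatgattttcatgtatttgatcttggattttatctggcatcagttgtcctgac
5730437C12Rik: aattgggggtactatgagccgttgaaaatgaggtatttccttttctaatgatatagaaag
Over the 11 probes the GC content ran from 35.0% to 48.3%, against a median of 40% over all probes. The longest run of bases that any of them shared with a probe of another gene was 13 to 15. Positions are those of the files, in mm7. Lrrc15 probe 2 lies at chr16:29945971-29946030 and Mrgpra1 at chr7:43521889-43521948, both on the minus strand. Olfr460 lies at chr6:40502215-40502274 on the plus strand and 5730437C12Rik at chr2:56776300-56776359 on the minus strand. Whether a probe lies in coding sequence or in an untranslated region was not analysed here, since no transcript models of that build were used.

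Levels are log2 intensities relative to the 75th percentile of the array, which was between 687.5 and 794.4 intensity units. Slide 1 held RF8, #620-2 and #620-6, and slide 2 held #757-1 and #757-2. The scanner called between 26412 and 27202 probes well above background on slide 1, against 22100 and 21285 on slide 2. The lowest level well above background was between -6.22 and -5.90 on slide 1 and -4.49 and -4.22 on slide 2, so dim signals are harder to see in the latter. The weakest undetected signals also read higher on slide 2, which holds knock-in lines only. Olfr749, well above background in no line, read -8.31, -8.22 and -8.55 in RF8, #620-2 and #620-6. In #757-1 and #757-2 it read -6.81 and -6.54. Differences of dim probes between genotypes can carry this slide offset. No spot was saturated. In bulk RNA, fewer cells of a type and less RNA per cell cannot be told apart. All 13 probes of 10 ESC marker genes were well above background in all 5 lines.

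All 11 member probes passed the filter on dim probes, and in each of them the 2 genotype groups did not overlap. The means were more than 2-fold apart and higher in ECAT11 EGFP/EGFP ESCs for 8 probes of 6 genes, and lower for 2 probes of 2 genes. Over all probes the share with such separation was 3.25% for higher and 1.48% for lower signals, and 23.5% of probes had groups that did not overlap at any fold. Since separation chose the members, nothing is read from these counts. Only 5 of the member probes, of Nf2, Gm288 and Lrrc15, were well above background on all 5 arrays.

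**Figure D1:**
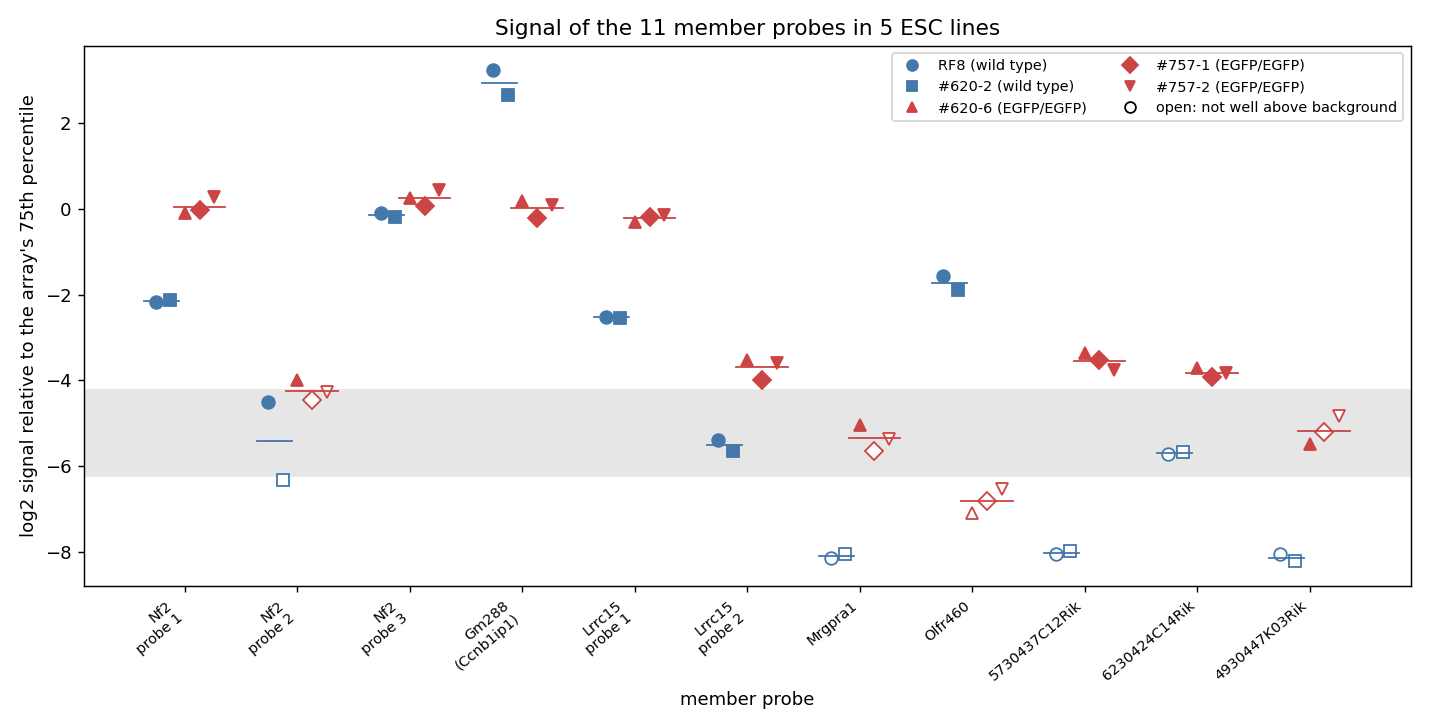
Log2 signal relative to the array's 75th percentile (y axis) of each of the 11 member probes (x axis) in the 2 wild-type lines (blue) and the 3 ECAT11 EGFP/EGFP lines (red), with open symbols for signals not well above background, short lines at the group means and a grey band over the arrays' lowest levels well above background (-6.22 to -4.22). The groups are apart in every column, by 2.02 for Nf2 probe 1 and by 2.21 for Lrrc15 probe 1, and most open symbols belong to the receptors and the RIKEN clones.

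Nf2 was measured by 3 probes that gave different answers. Probe 1 had a level of -2.18 in RF8 and -2.13 in #620-2, and of -0.10 in #620-6, -0.03 in #757-1 and 0.29 in #757-2. The knock-in lines were therefore all above both wild-type lines, with means of 0.05 ± 0.21 (SD, n = 3) against -2.15 ± 0.04 (SD, n = 2), a 4.60-fold difference. Probe 3, at chr11:4718399-4718458, lies nearer to the 3′ end of this minus-strand gene. It read -0.09 and -0.19 in the wild-type lines and 0.26, 0.06 and 0.45 in #620-6, #757-1 and #757-2. The order of the groups was the same, but the difference was 1.31-fold, and the gap between the nearest lines was 0.15 on the log2 scale.

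Within the wild-type lines, probe 1 lay 2.08 (RF8) and 1.94 (#620-2) below probe 3 on the log2 scale, and within the knock-in lines 0.36, 0.09 and 0.16 below it. The level of one probe cannot be set against that of another. The shift of this difference between genotypes, 1.81 on the log2 scale or 3.5-fold, means that these probes changed unequally. Whether the transcript changed unequally along the gene was not tested. Of the 6668 genes with at least 2 kept probes, 2.65% had a wider spread among the genotype differences of their probes, and the median spread was 0.23. Since Nf2 was chosen for a wide difference, this rank is a description and no support. Probe 2, at chr11:4721109-4721168, was dim. It read -4.51 in RF8, -6.33 in #620-2, -3.99 in #620-6, -4.46 in #757-1 and -4.26 in #757-2, and was well above background in RF8 and #620-6 alone. RF8 lay within 0.05 of the lowest knock-in line, itself not well above background, so the mean difference of 1.19 rests on #620-2. It was 2.09 without RF8 and 0.28 without #620-2. Nf2 thus separated the genotypes by more than 4-fold at 1 of its 3 probes.

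**Figure D2:**
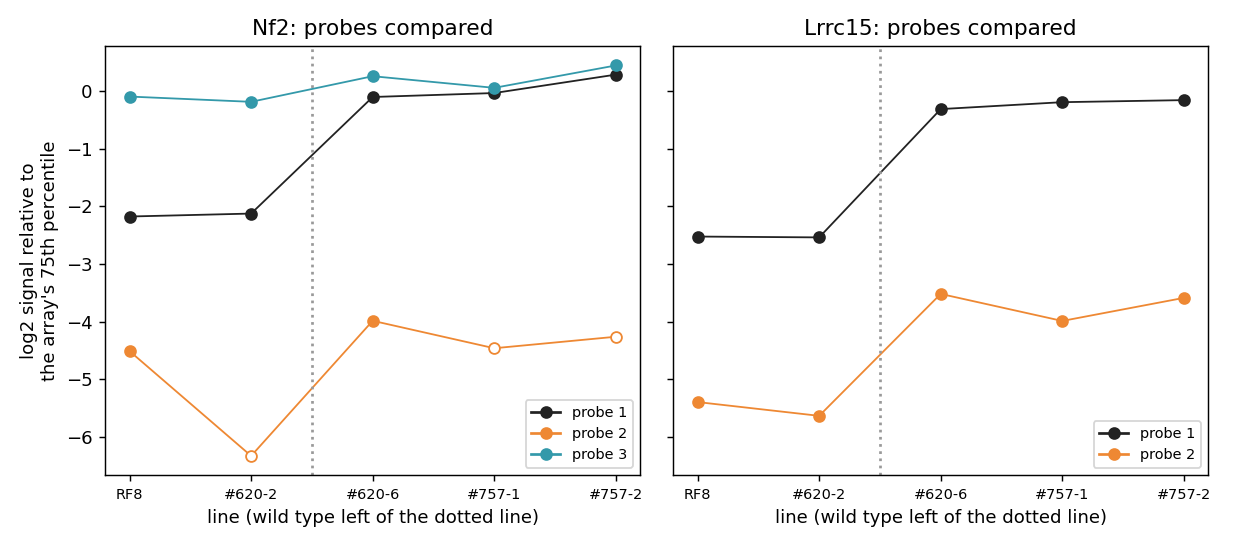
Log2 signal relative to the array's 75th percentile (y axis) of the 3 probes of Nf2 (left) and the 2 probes of Lrrc15 (right) in each line (x axis), with open circles for signals not well above background and lines that join the values of a probe. For Nf2, probe 1 steps up by 2.20 between the genotypes and probe 3 by 0.39, while both Lrrc15 probes step up, by 2.31 and 1.82.

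The Hippo pathway and its membrane partners were examined through a list of 33 genes, of which 32 had a kept probe. A call by limma required a 2-fold change at an adjusted p under 0.05. It was met by 0 of the 67 kept probes (smallest adjusted p 0.45) and by 0.00345% of all probes, the single probe of Ubd. An unadjusted p under 0.05 was given for 6 of them, or 8.96%, against 7.6% of all probes. The median log2 difference was 0.13, with 40 probes higher and 27 lower, beside a median of -0.019 over all probes. Frmd6, an upstream Hippo regulator related to merlin, had the smallest p of the list. The probe with that p read -1.02 and -0.58 in the wild-type lines and 0.16, 0.07 and 0.07 in the knock-in lines. Its log2 difference was 0.90 (SE 0.19, adjusted p = 0.45 from limma), and the other Frmd6 probes had 0.78 and 0.37. A probe of Map4k4, a kinase that can act on Lats1 and Lats2, had a log2 difference of 0.58 (adjusted p = 0.555 from limma). The other Map4k4 probes had 0.35 and 0.11. The dim probe of Vgll4, a competitor of Yap1, had a log2 difference of 1.05 (adjusted p = 0.569 from limma). The Yap1 targets Ccn1 and Ccn2, picked after a look at their values, had log2 differences of 0.36 (SE 0.50) and 0.26 (SE 0.72), and Ankrd1, also such a target, one of -1.29 (SE 1.16).

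Gm288, the array's name for Ccnb1ip1, was lower in the knock-in lines. Its only probe, at chr14:46123539-46123598 on the minus strand, had a level of 3.23 in RF8 and 2.67 in #620-2, against 0.17 in #620-6, -0.21 in #757-1 and 0.09 in #757-2. In intensity units these were 7437 and 4845 against 866.0, 594.0 and 737.6. The means were 2.95 ± 0.40 (SD, n = 2) and 0.02 ± 0.20 (SD, n = 3), which is 7.61-fold lower, and the nearest lines of the groups were 5.62-fold apart. The knock-in lines still lay near the 75th percentile of their arrays, so the signal of this probe was not lost from them. Whether it comes from the intact transcript was not tested.

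The list of meiotic recombination genes did not share this difference. Of its 34 genes, 29 had 38 kept probes, of which limma called 0, and 1 had an unadjusted p under 0.05, or 2.63%. The median log2 difference was 0.04, with 22 probes higher and 16 lower. The probe with the small p belongs to Sycp3, a component of the axis of meiotic chromosomes. It read -0.78 and -0.85 in the wild-type lines and -1.87, -1.75 and -1.69 in the knock-in lines, a log2 difference of -0.95 (SE 0.15, adjusted p = 0.346 from limma). Tex15 and Tex12, both needed in meiotic prophase, were next, with log2 differences of 0.67 (adjusted p = 0.689 from limma) and 1.04 (adjusted p = 0.702 from limma).

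The probes of Lrrc15 gave one direction. Probe 1, at chr16:29942423-29942482, read -2.52 and -2.54 in RF8 and #620-2 and -0.31, -0.19 and -0.16 in #620-6, #757-1 and #757-2. Probe 2, which lies 3548 bases from it, read -5.40 and -5.64 in the wild-type lines and -3.52, -3.99 and -3.59 in the knock-in lines. Both probes were well above background in every line, and in both of them the 3 knock-in lines were above both wild-type lines. Probe 2 was dim, however, at 18.8 and 15.3 intensity units in RF8 and #620-2. There it lay 0.59 and 0.27 above the array's lowest level well above background, and in #757-1 and #757-2 0.50 and 0.63 above it. The difference was 4.97-fold at probe 1, where the wild-type lines differed by 0.01 and the knock-in lines by at most 0.16 on the log2 scale, and 3.53-fold at probe 2. The differences of the 2 probes were 0.49 apart on the log2 scale, a wider spread than in 76.4% of the genes with at least 2 kept probes. With normexp, another background correction, they were 1.90 and 0.79.

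Other genes named Lrrc were not shifted as a group, with a median log2 difference of -0.020 over 72 kept probes of 48 genes, 34 higher and 38 lower. Limma called 0 of them, and 7 had an unadjusted p under 0.05, or 9.72%. The smallest p belonged to Lrrc3, with a log2 difference of -1.09 (adjusted p = 0.549 from limma), and both Lrrc28 probes came next, with -0.97 (adjusted p = 0.559 from limma) and -0.61 (adjusted p = 0.582 from limma).

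Fibroblast and feeder markers were examined because Lrrc15 is known from such cells. Of 12 marker genes, 11 had 18 kept probes, 5 higher and 13 lower in the knock-in lines, with a median log2 difference of -0.68. Limma called 0, and 4 had an unadjusted p under 0.05, or 22.2%, against 7.6% of all probes. The summed signal of the list, in multiples of the 75th percentile, reached 32.3 for RF8 and 21.9 for #620-2 but 21.0, 14 and 16.7 for #620-6, #757-1 and #757-2. Single markers did not all follow that order, as Dcn, a matrix proteoglycan picked after a look at its values, read -3.30 in RF8 and -0.27 in #620-6. The part of these cells in the Lrrc15 difference was not tested. Neither probe of Fap, which marks activated fibroblasts, was well above background in any line. With the slide as a block, which leaves #620-6 against the wild-type lines, the median of the list was 0.0089. The probes with the smallest p went both ways. Pdgfrb, a receptor of mesenchymal cells, had a log2 difference of -2.52 (adjusted p = 0.591 from limma), while dim probes of the collagen gene Col5a1 and of the actin gene Acta2 had 1.25 (adjusted p = 0.512 from limma) and 1.29 (adjusted p = 0.582 from limma). The latter has no value in #620-6. Probes of these genes well above background in every line were flat or lower, with -0.080 for Col5a1 and 0.014, -0.81 and -1.13 for Acta2. The last of these was the remaining probe at an unadjusted p under 0.05.

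The odorant receptor gene Olfr460 was well above background in wild-type ESCs only. Its only probe read -1.56 in RF8 and -1.88 in #620-2, or 270.0 and 207.1 intensity units. In #620-6, #757-1 and #757-2 it read -7.09, -6.81 and -6.54 and was not well above background. Where a group is below background its mean is only an upper limit. The fold is therefore taken against the higher of the probe's own level and the lowest level well above background on each array. On that scale Olfr460 was 9.56-fold lower in the knock-in lines. With normexp the log2 difference was -2.21, so this fold is no strict minimum.

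The nearest probes to that of Olfr460 had almost no signal. Clec5a, a receptor of myeloid cells on the other strand, has a probe 2868 bases away that was well above background in 1 line, with a log2 difference of 0.04, and the next receptor, Olfr461, was not well above background in any line. Of 955 probes for other genes named Olfr, 247 were kept, and 20 were well above background in all lines. Their median log2 difference was -0.072, with 113 higher and 134 lower, and limma called 0. An unadjusted p under 0.05 was given for 30, or 12.1%. The smallest belonged to Olfr545 (adjusted p = 0.23 from limma), Olfr1198 (adjusted p = 0.285 from limma) and Olfr1263 (adjusted p = 0.285 from limma). Their log2 differences were 2.33, 1.16 and 1.31, from signals well above background in 1 or 2 lines.

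Mrgpra1 was near the limit of the arrays. It read -8.14 and -8.06 in the wild-type lines and -5.04, -5.64 and -5.37 in #620-6, #757-1 and #757-2, and was well above background in #620-6 alone, at 23.3 intensity units. On slide 2 its level lay below the lowest one that counts as well above background, so for #757-1 and #757-2 the data give only an upper limit, and no fold is given. Of 7 other probes for Mrgpr genes 2 were kept, and limma called neither. Mrgprb2, known from mast cells, had a log2 difference of 2.03 (adjusted p = 0.469 from limma) and was also well above background in #620-6 alone. In #757-1 and #757-2 it read -6.74 and -6.48, where Mrgpra2, undetected in all lines, read -6.80 and -6.53. The part of the slide offset in the Mrgprb2 difference was not tested. Mrgpra4 was well above background in 2 lines, one of each genotype, with a log2 difference of 0.82 (SE 1.26).

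The 3 RIKEN clones were at or below background in wild-type ESCs. 5730437C12Rik had a level of -8.06 in RF8 and -7.99 in #620-2, 3.0 intensity units in each. It read -3.36, -3.54 and -3.76 in #620-6, #757-1 and #757-2, or 74.6, 59.2 and 51.2 units, and was well above background in these lines only. On the scale used for Olfr460 it was 5.26-fold higher in the knock-in lines. With normexp the log2 difference was 1.10, so this fold is no strict minimum either. The signal of 6230424C14Rik, at chr13:112125554-112125613 on the minus strand, was -5.72 and -5.67 in the wild-type lines, not well above background. In the knock-in lines it was -3.72, -3.91 and -3.82, well above background. The means were 3.68-fold apart, and with normexp the log2 difference was 0.67. This fold, too, is no lower limit. The third clone, 4930447K03Rik, is a long noncoding RNA in RefSeq and its probe lies at chr13:33501961-33502020 on the minus strand. It read -8.05 and -8.22 in the wild-type lines and -5.49, -5.21 and -4.83 in the knock-in lines. Although #757-1 and #757-2 had the higher levels, only #620-6 was called well above background, so no fold is given here either. The file describes this clone as weakly similar to beta-tubulin. The 3 probes of Tubb2a, a beta-tubulin gene 8196 to 10126 bases away, had log2 differences of 0.17, 0.09 and 0.49, none with an unadjusted p under 0.05.

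The lines form 2 pairs of genotypes that share no array. The first, #620-6 and #620-2, are both labelled female and lay on slide 1. The second sets the mean of #757-1 and #757-2 against RF8, all labelled male, across the slides. In both pairs 7 member probes were more than 2-fold higher in the knock-in lines and 2 more than 2-fold lower, where 2.43% and 0.858% of all probes were. This restates how the members were chosen. Several of these counts rest on values below background. Lrrc15 probe 1, well above background in every line, differed by 2.23 and 2.35. Gm288 differed by -2.49 in the first pair and -3.29 in the second, and Nf2 probe 1 by 2.02 and 2.30. Nf2 probe 2 differed by 2.35 and 0.15, where #620-2, #757-1 and #757-2 were not well above background. Against both wild-type lines on its own slide, #620-6 was 4.14-fold higher at Nf2 probe 1, 4.66-fold higher at Lrrc15 probe 1 and 6.83-fold lower at Gm288.

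**Figure D3:**
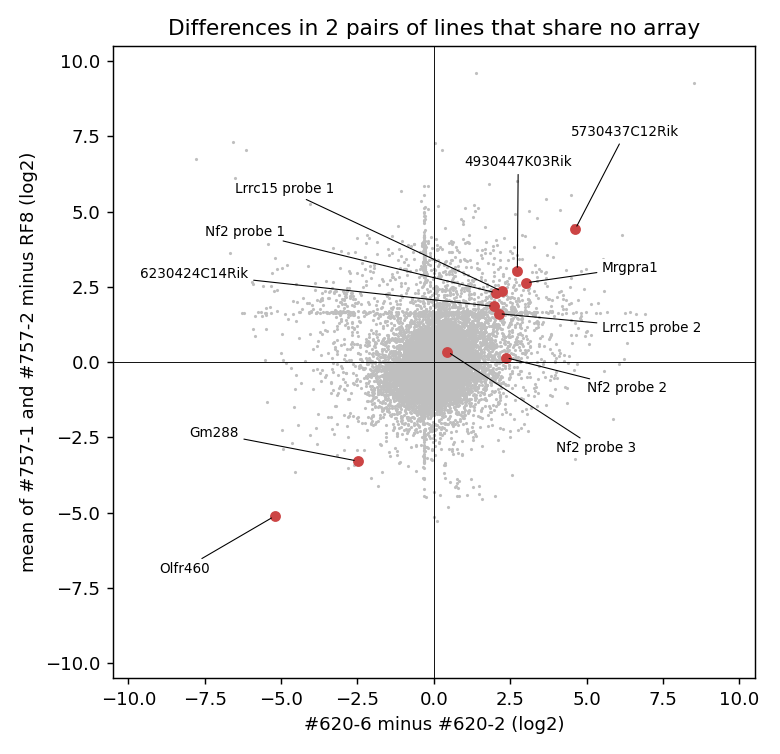
Log2 difference of #620-6 from #620-2 (x axis) against that of the mean of #757-1 and #757-2 from RF8 (y axis) for the kept probes (grey, 28898) and the 11 member probes (red). The 9 member probes that differ in both pairs lie away from both axes with the same sign in both pairs, Nf2 probe 2 lies by the x axis at 2.35 and 0.15, and Nf2 probe 3 lies near the origin.

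Genes beside a member were not used to choose it, so they were compared with limma. Within 500 kb of the member probes, 0 probes were called near any member. At an unadjusted p under 0.05 there were 0 of 25 kept probes near Nf2, 0 of 8 near Lrrc15 and 0 of 3 near 5730437C12Rik, where the smallest p belonged to Emid1, ENSMUST00000054524 and 2210008N01Rik, with log2 differences of -0.82, -0.69 and -0.51. There was 1 of 12 near Mrgpra1, Uevld with -0.41, 1 of 9 near Olfr460, the dim 1700074P13Rik with 1.85, and 1 of 18 near 4930447K03Rik, Serpinb6c with 0.90. In #757-1 and #757-2, 1700074P13Rik read -6.76 and -6.48, near the level of the undetected Olfr749 there. Against 7.6% over all probes, the shares near Gm288 and 6230424C14Rik were higher, at 9 of 28 probes (32.1%) and 4 of 9 (44.4%). With a 2-fold change required as well, 3 probes near Gm288 were higher and 3 lower, where 2.34% and 0.994% of all probes were. The 3 higher ones were each well above background in 1 line alone.

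Around Gm288 the 9 probes went both ways. The smallest p belonged to AI385586, placed in Ang by RefSeq, with a log2 difference of 1.97 (adjusted p = 0.285 from limma), from a signal well above background in 1 line. Another kept probe beside AI385586, 312.022 kb from Gm288 against 311.909 kb, had 0.065 and was well above background in 3 lines. That probe and the rest of the 9 were picked after a look at their values. Both probes of Rnase4, a ribonuclease gene, were lower, by -2.44 and -2.31, and read -1.11 and -1.25 in the wild-type lines and -2.70, -3.77 and -4.40 in the knock-in lines at the brighter probe. A probe of the DNA repair enzyme Parp2, 29544 bases away, had -0.52, and the other Parp2 probe -0.37. One Ttc5 probe, 13816 bases away, had 0.96, but the second Ttc5 probe had -0.48, so this neighbour has no common direction. The unnamed transcript TC1549841 had -1.57 and Olfr740 -0.76, while AF191547 and NAP059882-1 had 1.95 and 1.75 and were well above background in 1 line each. In #757-1 and #757-2, AF191547 read -6.81 and -6.54 and NAP059882-1 -6.79 and -6.52, near the undetected Olfr749 there. The part of the slide offset in these differences was not tested. Without RF8 the count was 5, and a slide block left 7.

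Around 6230424C14Rik all 4 probes belong to Itga1, an integrin subunit that binds collagen, on the same strand and between 5426 and 77355 bases away. Their log2 differences were 1.52, 1.61, 0.71 and 2.46, all higher in the knock-in lines, with adjusted p from limma between 0.385 and 0.602. They were dim, well above background in 1 or 2 lines each. The second of them, 13064 bases away, read -5.53 and -6.47 in the wild-type lines and -4.27, -4.55 and -4.34 in the knock-in lines. The 4 probes measure a single gene and are not independent. The count near 6230424C14Rik was 2 under a slide block, and 2 without #757-1 or #757-2.

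**Figure D4:**
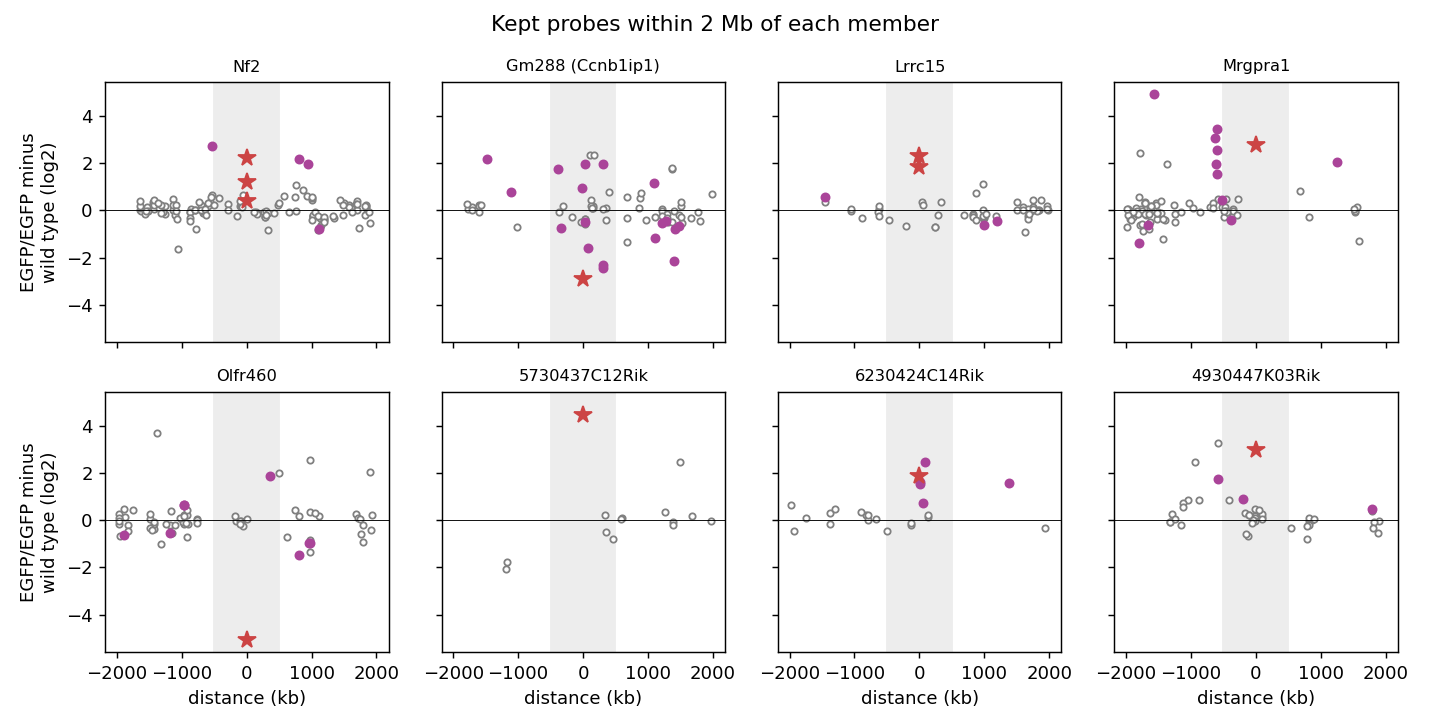
Log2 difference of ECAT11 EGFP/EGFP from wild type (y axis) of kept probes by their distance in kb from each member (x axis, toward higher positions to the right), with purple dots at an unadjusted p under 0.05, open circles otherwise, red stars for the member's own probes and shading within 500 kb. Purple dots lie within the shading above all beside Gm288, where 9 of 28 go both ways, and beside 6230424C14Rik, where all 4 lie above 0.

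Some other probes had nearly the same pattern over the 5 lines as a member. They were picked for the highest Pearson r among 2022 probes with a range of at least 2 on the log2 scale, so the choice itself gives high values, and r is given as a description only. Nf2 probe 1 was closest to Urgcp, a gene 930937 bases away on the same chromosome (r = 0.994), which read -0.78 in both wild-type lines and 1.07, 0.92 and 1.52 in the knock-in lines. Ubd was the closest to Lrrc15 (r = 1.00), 5730437C12Rik (r = 0.994) and 6230424C14Rik (r = 0.992), and the second closest to Nf2. Gm288 was closest to AK035714 (r = 0.992), a transcript 1397838 bases away on its chromosome, and then to Figla (r = 0.991), a transcription factor of oocytes. Olfr460 was closest to Figla (r = 0.997), which read -3.82 and -3.90 in the wild-type lines and -5.96, -6.05 and -5.71 in the knock-in lines. Mrgpra1 went with BC048679 and Chpt1 (r = 0.994 and 0.991), and 4930447K03Rik with Rab3il1 and Phf19 (both r = 0.995). These values share the 5 arrays, their slides and the scaling.

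Promoters of 6 members are in the RefSeq table (GRCm38.p6), as windows of 300 bases around the transcription start. They were searched for CG dinucleotides, which read the same on both strands. The windows held 0 in Olfr460, 1 in Mrgpra1 and 3 in 4930447K03Rik, against 13 in Ccnb1ip1, 16 in Lrrc15 and 22 at one of the 2 starts of Nf2, with 2 at the other. Of 32851 promoters, 94.6% held at least 1, with a median of 7, and 62.1% of them held fewer than Ccnb1ip1, 67.0% fewer than Lrrc15 and 76.9% fewer than the first Nf2 start. The windows of the lower members, Olfr460 and Ccnb1ip1, lay on both sides of the median, as did those of the higher members.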

How the data were processed

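The authors extracted 5 one-colour Agilent arrays with Feature Extraction 9.5.3.1 and deposited scanner files with a background-corrected intensity per spot, not normalized between arrays, and a table with log2 values. Differences between arrays in the latter had a slope of 0.999 against the scanner values over 20630 probes, while the authors' constant per probe is unknown. Its column medians ran from -0.10 to 0.077. The study's methods and the file headers name different scanner models.

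From the intensities, 1639 of 45018 spots were left out as controls, spots marked non-uniform or population outliers (0.316% to 0.355% per array) were removed, intensities were divided by the 75th percentile of the array and put on the log2 scale, and the mean over spots gave a value per probe. Of 41174 probes, 28972 were Present on 1 array or more and entered the fit. Genotypes were compared over all kept probes with limma 3.58.1 (R 4.3.3, Benjamini-Hochberg adjustment), calling probes with a 2-fold change whose adjusted p was under 0.05. The number of arrays limits the precision. The sequence and position of 1 probe are not reported here. The fit was tested on simulated data. Names came from RefSeq accessions for 22951 probes, from symbols for 9811, and from the files for 8412. Files were read with the R package data.table (1.17.8) and with pandas 2.3.3, and figures were drawn with matplotlib 3.10.9.

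The members and gene lists were chosen with earlier results of these data known. Other genes named were, by rule, the 2 probes most correlated with each member's widest-differing probe (Present on at least 3 arrays), up to 3 probes per list with the smallest p, and the probe with the smallest p within 500 kb of a member. Alternatives were another background correction, normalization, centring, filter, test or window, the deposited log2 values, marked spots kept, slide or sex label in the model, and each line left out.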

Additional observations from a re-analysis of the deposited data

Results flagged for a closer look

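The median log2 difference of the ESC marker list, 13 probes of 10 genes that were well above background in all lines, had opposite signs in the 2 pairs of lines with the same sex label. It was -0.091 for #620-6 against #620-2, both labelled female, and 0.44 for the mean of #757-1 and #757-2 against RF8, all labelled male. The difference between the pairs was not tested, and the second pair spans both slides. No member probe had opposite signs in the 2 pairs, but none could, since the members were chosen for separated groups. Nothing is read from this. The smallest p in the list belonged to Fbxo15, a known target of the pluripotency factors, with a log2 difference of 1.23 (adjusted p = 0.471 from limma). Tdgf1, a Nodal coreceptor, had -0.78 (adjusted p = 0.66 from limma) and Zfp42, a zinc finger protein of ESCs, -2.09 (adjusted p = 0.721 from limma). Its level was low in #620-6 (4.01) and #757-2 (3.87) but 6.56 in #757-1, near the wild-type lines, of which #620-2 read 6.80 and RF8 was higher.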

How the results depend on the processing

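Of 132 values of the member probes, 11 probes under 12 alternatives, 0 reversed and 21 moved by more than the spread between lines. The members were chosen for separated groups. No sign could therefore reverse with a line left out or with the slide or sex label in the model. Normexp gave the smallest differences for the dim members, at 0.49 for Mrgpra1, 0.46 for 4930447K03Rik, 0.67 for 6230424C14Rik, 1.10 for 5730437C12Rik and -2.21 for Olfr460, while Nf2 probe 1 was at 1.87, Lrrc15 probes 1 and 2 at 1.90 and 0.79, and Gm288 between -3.21 and -2.65 over all 12. The count of limma calls over all probes, 1 for Ubd, was 0 with normexp, quantile normalization, a slide block, the sex label, no filter, the methods' t-test after adjustment and each line left out (0 to 0), 2 with median centring and 3 with the stricter filter, which leaves 26703 probes to adjust over. The calls beside Ubd fell on members, which were chosen for this difference, and support nothing. Probes with a 2-fold change whose unadjusted p was under 0.05 numbered 967, and 258 with normexp, 853 with quantile normalization, 1755 with the slide, 1380 with the sex label, 1828 with no filter, 684 with the stricter filter, 580 with the methods' t-test and 840 to 1565 with a line left out.

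No list had a call in any alternative. The fibroblast median of -0.68 was 0.0089 under a slide block and -0.022 with no filter. The ESC marker median of 0.14 ran from -0.32 without RF8 to 0.44 with 1 line left out. The Mrgpr median of 1.42, over 2 dim probes well above background in 1 and 2 lines, was 0.22 with normexp. The Olfr median of -0.072 was 0.084 with normexp, -0.24 under a slide block, 0.95 with no filter, and -0.15 to 0.14 with 1 line left out, the highest without RF8. Near Gm288 the count at an unadjusted p under 0.05, 9, was 5 to 10 with 1 line left out, and near 6230424C14Rik, 4, it was 2 to 3, and 2 under a slide block. These alternatives for the 2 counts were chosen after seeing the data. Within 2000 kb, 0 probes were called near any member. Without a wild-type line the lone one is assumed to vary like the other group. Beyond the smaller or larger sets of arrays and probes, the cause was not tested. No paired analysis by replicate number was possible because those numbers were given in accession order and pair no lines. The sex label, which the lines of each pair share, entered 1 fit as a covariate. Signal over background limits Mrgpra1, 4930447K03Rik and Nf2 probe 2 most.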

Other observations

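Farther from Mrgpra1, between 591464 and 632968 bases away in mm7, lie the serum amyloid A genes, acute-phase proteins made in inflammation, picked after a look at their values. Saa3 read -3.39 and -3.47 in RF8 and #620-2 and -0.25, -0.89 and 0.09 in #620-6, #757-1 and #757-2, well above background in all 5 lines, a log2 difference of 3.08 (SE 0.33, adjusted p = 0.285 from limma). Saa2 read -3.98 and -4.20 against -1.62, -2.32 and -0.64, also well above background in all lines, with 2.56 (SE 0.53, adjusted p = 0.427 from limma). The brighter Saa1 probe had 1.56 (adjusted p = 0.432 from limma) and the dimmer one 3.45 (adjusted p = 0.497 from limma), the latter with a missing value in #620-2. Saa4 had 1.96 and was well above background in 1 line. All 3 knock-in lines were above both wild-type lines in each of these probes, except that #620-2 has no value at the dimmer Saa1 probe. Whether transcripts of these related genes cross-hybridize was not tested. Limma called none of them, and within 2000 kb of Mrgpra1 11 of 91 probes (12.1%) had an unadjusted p under 0.05, against 7.6% of all probes.

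Beside Nf2, the same window held 4 of 129 probes at an unadjusted p under 0.05 (3.1%). Urgcp, which promotes cell proliferation, was the one with the smallest p, with a log2 difference of 1.95 (SE 0.23, adjusted p = 0.285 from limma) and a level well above background in all lines. Near Gm288 the wider window held 18 of 73 such probes (24.7%), 5 more than 2-fold higher and 5 more than 2-fold lower, among them Ndrg2, with a log2 difference of -1.18 (SE 0.24, adjusted p = 0.417 from limma). Isl1, a homeobox gene 1382999 bases from 6230424C14Rik, had 1.56 (SE 0.24, adjusted p = 0.344 from limma). Its probe was dim, well above background in 3 lines, and read -6.16 in RF8 and -6.53 in #620-2. These genes were picked after a look at their values.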
